A study of Mus musculus with 20 samples.

Results

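The mouse mitochondrial genome carries 37 genes, and all 37 were among the 48795 genes measured in 20 embryonic hearts. They were chosen by chromosome and symbol alone, and comprise 13 protein-coding genes, 2 ribosomal RNA genes and 22 transfer RNA genes. The hearts were collected at E13.5, at mid-gestation, and RNA was sequenced after library preparation with an mRNA kit. Each embryo was either WT or carried an extra copy of a stretch of mouse chromosome 16 that is homologous to part of human chromosome 21, as models of Down syndrome. There were 5 hearts of Dp3Tyb, that is Dp(16Mir802-Zbtb21)3TybEmcf, 5 of their WT littermates (labelled wt_d), 5 of Ts1Rhr, that is Dp(16Cbr1-Fam3b)1Rhr, which carries a shorter duplication, and 5 of their WT littermates (labelled wt_t). All mice were on a C57BL/6J background, and the duplications are present in every cell of the embryo. Heart defects are named in the labels of Ts1Rhr replicates 1 and 2, and in those of replicates 3 to 5 none are. The strain is described in the study as lacking such defects, so these hearts were kept as 1 group by genotype and results that move without replicates 1 and 2 are given both ways. Replicate numbers only name libraries, and nothing states whether the hearts of a group came from different litters.

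Mitochondrial DNA is a small circle present in many copies per cell and is inherited through the mother. Each strand is copied into a long RNA that spans many genes, from which transfer RNAs are cut out, leaving the ribosomal and messenger RNAs between them. Most of the messenger RNAs then receive short poly(A) tails, and all of them encode core subunits of the respiratory chain or of ATP synthase. Cardiomyocytes, which contract without pause, hold many mitochondria, and mitochondrial transcripts are among the most abundant RNAs in heart.

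Part of the mitochondrial genome also exists as a nearly identical copy in the nuclear genome, and this limits what the values of several members mean. A stretch of chromosome 1 (GRCm39, chr1:24650616-24655269, minus strand) matched positions 6390 to 11042 of the mitochondrial chromosome with 99.936% identity over 4654 aligned positions. It holds the whole of mt-Co2, mt-Atp8, mt-Atp6, mt-Co3, mt-Nd3 and mt-Nd4l, 31.3% of mt-Co1 and 63.6% of mt-Nd4. Only 3 places in that stretch differed. Counting positions from 1 at the start of the mitochondrial chromosome, these were A6393T in mt-Co1, at the edge of the match, T9461C in the start codon of mt-Nd3, and a run of A in mt-Tr (transfer RNA for arginine) that was 8 bases long in the mitochondrial sequence and 9 in the copy. The mt-Nd3 and mt-Tr windows are shown because they are the only marks by which a read from inside the stretch could be assigned to either source, with the differing base or run in capitals.
mt-Nd3, mitochondrial (GRCm39, chrM:9447-9475): cagaagagagtaatTaacctgtacactgt
mt-Nd3, chromosome 1 copy (chr1:24652184-24652212, minus strand): cagaagagagtaatCaacctgtacactgt
mt-Tr, mitochondrial (chrM:9811-9838): taattagtttAAAAAAAAttaatgattt
mt-Tr, chromosome 1 copy (chr1:24651820-24651848, minus strand): taattagtttAAAAAAAAAttaatgattt

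Neighbouring members also share bases with each other. mt-Atp8 and mt-Atp6, which encode subunits of ATP synthase on 1 messenger RNA, overlap by 43 bases (chrM:7927-7969), and mt-Nd4l and mt-Nd4 overlap by 7. mt-Nd5 and mt-Nd6 lie on opposite strands and share 14 bases at chrM:13552-13565. This overlap is shown because mt-Nd6 is the only coding gene on the minus strand, so that a read from here cannot be given to either gene without strand information.
mt-Nd5 and mt-Nd6, shared bases on the plus strand: ttaatctcgagtaa
Among the 13 coding genes, 10 end in a complete stop codon. mt-Co3, mt-Nd4 and mt-Cytb end in a single T, which the poly(A) tail completes to a stop codon. The files hold gene identifiers and no positions, and all 37 genes have the same ends in the RefSeq annotation of GRCm38, the build named for the deposited data, as in GRCm39.

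The 13 coding and 2 ribosomal RNA genes had reads in every library, whereas all 22 transfer RNA genes were listed at 0 in all 20. With 588992 to 2235326 reads on mitochondrial genes per library, a count of 0 allows transfer RNA to make up to 0.000509% of mitochondrial reads in the library with the fewest and 0.000134% in the library with the most. These limits cover counting error only. Transfer RNA genes are 75 bases or shorter, and of 745 other genes whose longest annotated transcript was that short, 0 had a read in any library. The share of genes with a read was 3.46% of 2456 genes for transcripts of 76 to 150 bases and 79.0% of 28180 genes for transcripts over 1000 bases. The zeros therefore describe all genes of that length in this table and say nothing about the amount of any transfer RNA in the heart.

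Library depth ranged from 6600839 to 19634514 reads. Mitochondrial genes took 4.85, 5.42, 5.41, 5.30 and 19.5% of reads in the 5 wt_d hearts and 5.80, 5.93, 6.15, 5.23 and 15.5% in the 5 Dp3Tyb hearts. They took 11.8, 10.51, 7.17, 17.2 and 5.84% in wt_t and 11.6, 13.1, 5.50, 6.12 and 5.86% in Ts1Rhr. In sorted order the 20 values left a gap between 7.17% and 10.51%, with 13 libraries under it and 7 above it, and each group had libraries on both sides. The group means were 8.10% ± 6.38 in wt_d, 7.71% ± 4.34 in Dp3Tyb, 10.51% ± 4.47 in wt_t and 8.45% ± 3.64 in Ts1Rhr (SD, n = 5 each). With all libraries kept, the spread inside every group was larger than either difference by genotype. Without Ts1Rhr replicates 1 and 2 the Ts1Rhr mean was 5.83% ± 0.309 (SD, n = 3), below wt_t by more than the SD of either group, and the ranges of 5.50 to 6.12% and 5.84 to 17.2% still overlapped. Those 2 replicates were the only Ts1Rhr libraries above the gap, while wt_t kept its 3 above it. Leaving them out thus removes the high shares from 1 group only, and defect label and share cannot be told apart. Without replicate 5 the means were 5.24% ± 0.270 in wt_d and 5.78% ± 0.392 in Dp3Tyb (SD, n = 4 each). Dp3Tyb was then the higher by more than the SD of either group, with ranges of 4.85 to 5.42% and 5.23 to 6.15% that overlapped. The 15 nuclear genes found to lie in near copies took a further 1.496 to 4.87% of reads, nearly all of it in the chromosome 1 stretch. Counting them as mitochondrial gave shares of 6.34 to 24.4%.

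**Figure D1:**
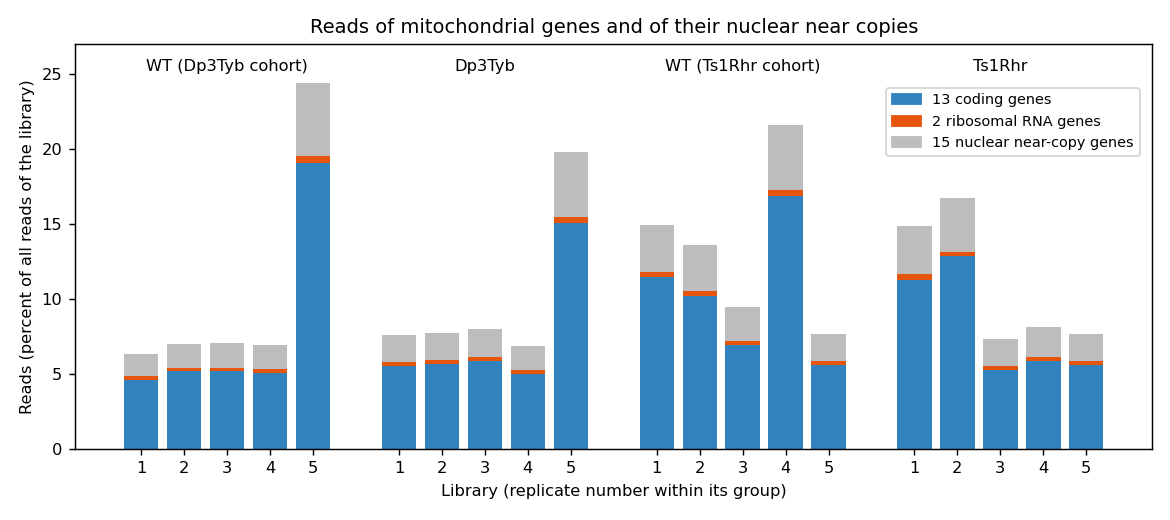
Reads of the 13 coding genes, the 2 ribosomal RNA genes and the 15 nuclear near-copy genes as a percent of all reads (y axis) in each library (x axis), by group, where WT (Dp3Tyb cohort) is wt_d and WT (Ts1Rhr cohort) is wt_t. wt_d replicate 5 reached 19.5% from mitochondrial genes and its 4 group mates 4.85 to 5.42%.

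The tissue label was checked against marker genes. All 10 cardiomyocyte markers (Tnnt2, Myh6, Actc1 and others) were detected, and their summed normalised read counts ranged from 372033 to 535866 in wt_d, 317487 to 460144 in Dp3Tyb, 411194 to 487555 in wt_t and 368505 to 501025 in Ts1Rhr. The summed level of 7 erythroid markers ranged from 32310.8 to 237768 over the 20 libraries, that of 5 mesenchyme markers from 56838.2 to 109363, that of 6 endothelial markers from 13941.4 to 18796.3, that of 5 epicardial markers from 3477.82 to 4617.85 and that of 6 macrophage markers from 995.308 to 1795.81. Lung and foregut markers (6 genes) summed to 4.5682 to 512.436, and liver markers (5 genes) to 8.38333 to 205.964. For every list the range of the mutant group overlapped that of its own WT group. The part of any of these cell types in the mitochondrial values was not tested, and in whole hearts more mitochondrial RNA per cell and more cells rich in mitochondria cannot be told apart.

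Complex IV, cytochrome c oxidase, takes its 3 core subunits from mt-Co1, mt-Co2 and mt-Co3. mt-Co1, the catalytic subunit, was the most abundant member. Its normalised read counts were 238055, 275858, 269006, 279474 and 776337 in wt_d and 285427, 303605, 313789, 250165 and 616803 in Dp3Tyb. They were 468229, 449328, 349121, 675951 and 306238 in wt_t and 493998, 547646, 295092, 298201 and 283775 in Ts1Rhr. Replicate 5 stood far above the rest in both groups of the Dp3Tyb cohort, the values of the Ts1Rhr cohort were more evenly spread, and mutant and WT ranges overlapped in both cohorts. From the lowest to the highest of the 20 libraries mt-Co1 differed 3.26-fold.

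mt-Co2, which receives electrons from cytochrome c, varied far more. Its normalised read counts were 12517, 12233, 14925, 11933 and 164904 in wt_d and 15632, 12878, 12550, 12250 and 79128 in Dp3Tyb. They were 52069, 37825, 18871, 104428 and 12962 in wt_t and 43531, 48527, 9429, 16116 and 13169 in Ts1Rhr. The same libraries were high as for mt-Co1, but the highest was 17.5 times the lowest. mt-Co3, the remaining core subunit, ranged 4.92-fold, from 16202 to 79636, and 2.69-fold, from 79509 to 214247, with near copies added.

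The wide range of mt-Co2 depended on how reads were divided between it and Gm28661, the pseudogene in the chromosome 1 stretch that matches it. Gm28661 had more reads than mt-Co2 in all 20 libraries, with a median of 93646 against 15279 normalised read counts. Of the reads of the pair, 15.97, 13.6, 16.5, 13.1 and 36.6% were given to mt-Co2 in wt_d and 14.5, 12.7, 12.03, 13.4 and 23.3% in Dp3Tyb. The shares were 24.5, 18.8, 14.3, 29.5 and 12.6% in wt_t and 19.6, 19.2, 9.04, 13.55 and 13.0001% in Ts1Rhr. In wt_d, Dp3Tyb and wt_t the library with the largest mitochondrial share also gave the largest part of the pair to mt-Co2, whereas in Ts1Rhr replicate 1 was above replicate 2. With both genes summed the range was 5.75-fold, from 78374 to 450957.

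The other pairs showed the same imbalance where the copy is complete. Atp6-ps, which matches mt-Atp6, had a median of 80458 and Gm28437, which matches mt-Co3, a median of 71598 normalised read counts, both above the mitochondrial gene in 20 of 20 libraries. mt-Atp6 held 10.9 to 19.7% of the reads of its pair, mt-Co3 18.6 to 37.2%, mt-Nd3 9.27 to 21.7% and mt-Nd4l 17.8 to 41.1%. For mt-Nd4 and mt-Co1 the copy holds only 63.6% and 31.3% of the gene, so their totals include reads from bases that the copy lacks and do not measure how shared reads were divided. mt-Nd4 had 87.1 to 97.4% of all reads of the pair with Gm28439, with the lowest parts in wt_d replicate 5 (87.1%) and Dp3Tyb replicate 5 (87.2%), and mt-Co1 had 98.6 to 99.5% of those of the pair with Gm29216. How the authors' counting divided reads that match both places is not given in the sources used here. The values of mt-Co2, mt-Atp6, mt-Co3, mt-Nd3 and mt-Nd4l alone are therefore uncertain, and summed values are given beside them. Those of mt-Atp8 are uncertain too, and no summed value could be given, because no annotated gene of the copy matches it.

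**Figure D2:**
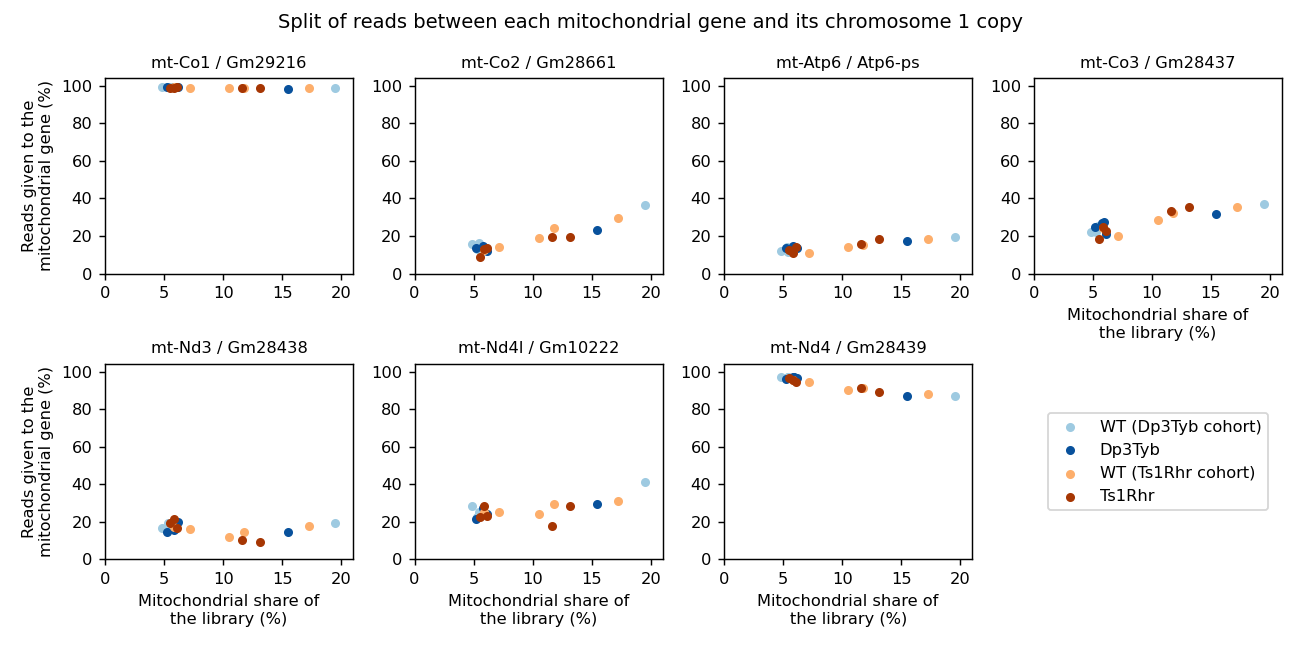
Percent of the reads of each pair that was given to the mitochondrial gene rather than to its chromosome 1 pseudogene (y axis) against the mitochondrial share of the library (x axis), 1 point per library. mt-Co2 runs from 9.04 to 36.6% and mt-Co3 from 18.6 to 37.2%, both wholly inside the copied stretch. mt-Co1, at 98.6% or above, and mt-Nd4 are not comparable with these, because the copy holds only 31.3% and 63.6% of them and reads from the rest are counted too.

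Summing the copies changed the order of the members per length of gene. As deposited, the medians over 20 libraries were 197360 normalised reads per kb for mt-Co1, 100280 for mt-Cytb (cytochrome b of complex III), 97418 for mt-Nd1 and 74592 for mt-Nd4, subunits of complex I. mt-Co2 (22338), mt-Atp6 (18328) and mt-Co3 (28216) lay below these by several fold. With near copies added, mt-Co2 reached 155337, mt-Atp6 133734 and mt-Co3 119873 normalised reads per kb, the next 3 places below mt-Co1 (198978). Neighbours in that order did not always differ beyond their spread. mt-Co1 was above mt-Co2 in 13 of 20 libraries and mt-Cytb above mt-Nd1 in 9 of 20, whereas mt-Atp6 was above mt-Co3 and mt-Nd1 above mt-Nd4 in 20 of 20. Of the complex I subunits, mt-Nd5 (53221) and mt-Nd2 (51737) could not be separated in level per kb, with mt-Nd5 higher in 9 of 20 libraries. mt-Nd4l and mt-Nd3 had the lowest levels per kb of the plus-strand coding genes, at 9693 and 5516 as deposited and 40980 and 32941 with near copies added.

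**Figure D3:**
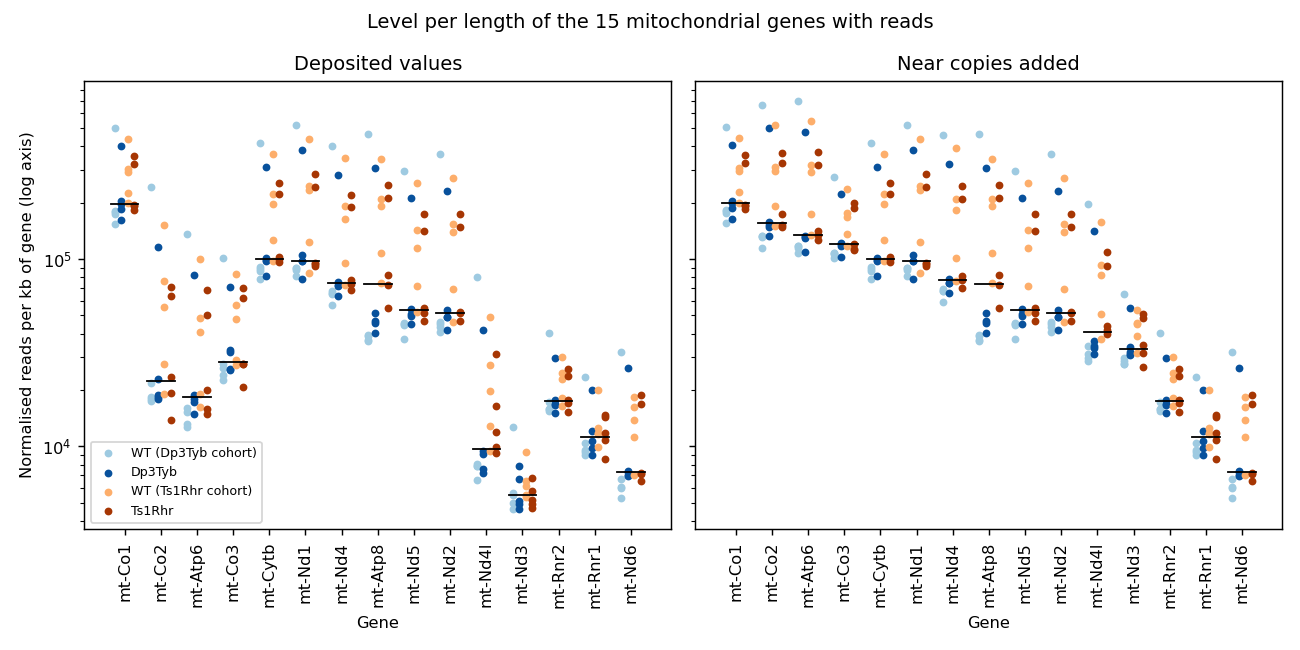
Normalised reads per kb of gene (log axis) for the 15 genes with reads, as deposited (left) and with the reads of near copies added to the gene they match (right), 1 point per library coloured by group, with the median as a black line. mt-Co2 moves from a median of 22338 to 155337 and mt-Atp6 from 18328 to 133734, while mt-Cytb stays at 100280.

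mt-Atp8, the small ATP synthase subunit, lies wholly in the copied stretch, but no annotated gene of the copy matches it. Its normalised read counts were 7581, 8003, 7934, 7458 and 94454 in wt_d and 9320, 9494, 8264, 10521 and 62122 in Dp3Tyb. They were 42537, 39098, 21894, 69583 and 15268 in wt_t and 42973, 50358, 11133, 16666 and 14786 in Ts1Rhr, and the highest library was 12.7 times the lowest. It made up 1.02 to 1.17% of coding reads in wt_d replicates 1 to 4 and 2.56% in replicate 5. In wt_t it made up 1.88 to 2.39%.

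mt-Nd6, the complex I subunit read from the other strand, was low, with 2768, 3489, 3131, 3150 and 16500 normalised read counts in wt_d and 3837, 3803, 3617, 3636 and 13663 in Dp3Tyb. The values were 9486, 7182, 5848, 8439 and 3661 in wt_t and 8785, 9725, 3765, 3712 and 3405 in Ts1Rhr. As a share of coding reads mt-Nd6 ranged from 0.275 to 0.567%, with both ends in wt_t (replicates 4 and 3). The lowest part was thus in a library whose total mitochondrial share was 17.2%. Whether capture through poly(A) tails had a part in the low level of mt-Nd6 was not tested.

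Both ribosomal RNAs, which carry only very short tails of A, were low per length, at medians of 17445 normalised reads per kb for mt-Rnr2 and 11242 for mt-Rnr1. mt-Rnr2, the RNA of the large mitochondrial ribosomal subunit, had 25129, 27370, 24363, 24931 and 63923 normalised read counts in wt_d and 26788, 26427, 27961, 23957 and 47156 in Dp3Tyb. It had 39093, 36360, 28549, 47495 and 25930 in wt_t and 41186, 37417, 24070, 27826 and 26952 in Ts1Rhr. mt-Rnr1, the RNA of the small subunit, ranged from 8231 to 22299, and its reads per mt-Rnr2 read were 0.306 to 0.434. The highest library was 2.67 times the lowest for mt-Rnr2 and 2.71 times for mt-Rnr1, narrower than for any coding gene as deposited (2.74 to 17.5). With near copies added mt-Nd3 ranged 2.45-fold and the other coding genes 2.69-fold or more.

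The balance between classes therefore differed between libraries. There were 5.29, 4.98, 4.54, 4.57 and 2.33 ribosomal RNA reads per 100 coding reads in wt_d and 4.49, 4.48, 4.64, 4.71 and 2.52 in Dp3Tyb. There were 2.79, 2.91, 3.69, 2.17 and 4.57 in wt_t and 2.98, 2.41, 4.15, 4.64 and 4.64 in Ts1Rhr. In every group the library with the largest mitochondrial share had the fewest ribosomal RNA reads per coding read. The means were 4.34 ± 1.16 in wt_d, 4.17 ± 0.929 in Dp3Tyb, 3.23 ± 0.928 in wt_t and 3.76 ± 1.01 in Ts1Rhr (SD, n = 5 each), and with all libraries kept neither difference by genotype exceeded the spread. Without Ts1Rhr replicates 1 and 2 the Ts1Rhr mean was 4.47 ± 0.283 (SD, n = 3), above wt_t by more than the SD of either group, with ranges of 4.15 to 4.64 and 2.17 to 4.57 that overlapped. The 2 replicates left out were those above the gap in mitochondrial share, and the 3 of wt_t above it were kept.

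Balance among coding genes shifted in the same libraries. mt-Co1 made up 36.7, 36.8, 36.6, 38.1 and 21.02% of coding reads in wt_d and 35.4, 37.1, 36.9, 36.2 and 23.5% in Dp3Tyb. It made up 25.6, 27.5, 33.8, 22.05 and 37.7% in wt_t and 26.9, 25.7, 37.9, 35.4 and 35.3% in Ts1Rhr. mt-Nd2 went the other way, with 6.11 to 6.52% in wt_d replicates 1 to 4 and 10.2% in replicate 5. These shares are parts of 1 total and are not independent of each other.

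Variation within groups was large for most members. The within-group SD on the log2 scale was 1.29 for mt-Co2, 1.204 for mt-Atp8 and 1.15 for mt-Atp6, against 0.54 for mt-Co1, 0.43 for mt-Rnr2 and 0.39 for mt-Nd3. With near copies added it was 0.81 for mt-Co2, 0.91 for mt-Atp6 and 0.41 for mt-Nd3. The place of mt-Co2 at the top therefore depended on how reads were divided. For mt-Atp8 no near copy could be added. The median SD was 0.96 over the 15 members with reads (0.82 with near copies added), 0.22 over the 15333 other genes tested and 0.14 over the 3386 of these with a mean value of at least 1000.

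Correlations of mt-Co1 with other measures are not given. The libraries fall on both sides of the gap in mitochondrial share, of which mt-Co1 is a large part, and levels differed between cohorts as well, so neither a pooled value nor one within either set of libraries would be a fair test. The levels are described instead. mt-Cytb and mt-Atp8 were highest in the same library as mt-Co1 in 4 of 4 groups, mt-Nd6 and mt-Rnr2 in 3 of 4. mt-Cytb, also a part of the share, made up a near-constant 12.8 to 14.2% of coding reads. mt-Atp8 separated the cohorts under the gap, with 7458 to 10521 in the 8 libraries of the Dp3Tyb cohort and 11133 to 21894 in the 5 of the Ts1Rhr cohort. Cohort and any other feature of these libraries cannot be told apart. How reads of mt-Atp8 were divided with the copied stretch is not known either, so this separation is uncertain.

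Among nuclear genes, Tnnt2 (cardiac troponin T of the sarcomere) had 34483, 40425, 34452, 38631 and 86245 normalised read counts in wt_d and 36331, 39526, 39835, 29840 and 70040 in Dp3Tyb. It had 52765, 50531, 43823, 73393 and 44936 in wt_t and 61276, 59233, 45173, 39387 and 38075 in Ts1Rhr. Its highest library was that of mt-Co1 in 3 of 4 groups, with Ts1Rhr the exception. Tnnt2 had 29840 to 45173 in the 13 libraries under the gap in mitochondrial share and 50531 to 86245 in the 7 above it. The summed level of all 10 cardiomyocyte markers, of which Tnnt2 is 1, did not separate them, with 317487 to 501025 under the gap and 411194 to 535866 above it. That sum was highest in replicate 5 in wt_d and Dp3Tyb and in replicate 4 in wt_t, as mt-Co1 was, but in Ts1Rhr in replicate 3, a library under the gap. Cox4i1, a nuclear-encoded subunit of complex IV, ranged only 1.23-fold over the 20 libraries, and in 0 of 4 groups was its highest library that of mt-Co1. Tfam, the transcription and packaging factor of mitochondrial DNA, ranged 1.31-fold and shared its highest library with mt-Co1 in wt_d and wt_t.

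The effect of genotype was tested with limma on log2(value + 1) over all genes past a filter on low values, with Benjamini-Hochberg adjustment. In Dp3Tyb against wt_d, 0 of 15 members passed an adjusted p of 0.05, where 8 of 14763 genes tested did (0.0542%). At an unadjusted p under 0.05 there were again 0 members, against 2.8% of all genes, and on the recovered reads 0 members were called by edgeR, which called 0.061% of all genes, or by DESeq2, which called 0.23%. The fitted log2 fold changes ran from -0.18 (mt-Co2, SE 0.77) to 0.15 (mt-Nd6, SE 0.52), with a median of 0.03 over 15 members and of -0.0027 over all genes tested. 10 members had fitted values above 0 and 5 below. On the log2 scale mt-Co1 changed by 0.03 with an SE of 0.34 and mt-Rnr2 by -0.05 with an SE of 0.28 (both with an adjusted p of 0.99996 from limma). No member had groups that did not overlap, against 0.975% of genes tested. Single libraries set the direction of these values. Without wt_d replicate 5, the shallowest library, all 15 fitted values were above 0 with a median of 0.55, and without Dp3Tyb replicate 5 all 15 were below 0 with a median of -0.35. The median was -0.12 to -0.07 without 1 of wt_d replicates 1 to 4 and 0.06 to 0.16 without 1 of Dp3Tyb replicates 1 to 4. In edgeR and DESeq2 all 15 were below 0, with medians of -0.19 and -0.20.

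In Ts1Rhr against wt_t, 0 of 15 members passed the adjusted p of 0.05 in limma, where 4 of 14867 genes did (0.0269%), and 0 passed an unadjusted p under 0.05, against 5.52% of genes. Again 0 members were called by edgeR (0.0269% of genes) or DESeq2 (0.168%). All 15 fitted values were below 0, from -0.71 (mt-Co2, SE 0.62) to -0.12 (mt-Rnr1, SE 0.18), with a median of -0.38 against -0.0016 over all genes tested. mt-Nd3 had the smallest error, at -0.25 (SE 0.15, limma adjusted p = 0.795), and mt-Co1 had -0.23 (SE 0.24, limma adjusted p = 0.800). No member had groups that did not overlap, against 1.12% of genes. Its size depended on single libraries. The median was -0.14 without wt_t replicate 4, whose share was 17.2%, and -0.23 without Ts1Rhr replicate 3. It was -0.60 and -0.67 without wt_t replicates 3 and 5, -0.69 without Ts1Rhr replicate 2 and -0.96 without Ts1Rhr replicates 1 and 2. In the fit without Ts1Rhr replicates 1 and 2, 9 members had an unadjusted p under 0.05, where 16.5% of 14652 genes did against 5.52% with all libraries, and the smallest adjusted p was 0.297 (limma, mt-Co1). The groups then did not overlap for 1 member, mt-Co1, against 10.5% of genes. This fit leaves out both Ts1Rhr libraries above the gap in mitochondrial share and keeps the 3 of wt_t above it. The lower values of the members cannot be told apart from that choice of libraries.

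The change in Dp3Tyb minus the change in Ts1Rhr was fitted over all 20 libraries. 0 of 15 members passed in limma, edgeR or DESeq2, where limma and edgeR called 0.013% of 15348 genes each and DESeq2 0.0195%, and 0 had an unadjusted p under 0.05 in limma, against 1.52% of genes. The fitted differences in limma were all above 0, from 0.12 (mt-Rnr2) to 0.64 (mt-Atp8, SE 0.98), with a median of 0.45 against 0.0015 over all genes tested. In edgeR and DESeq2 all 15 were above 0 as well, with smaller medians of 0.15 and 0.14. Single libraries moved this value too. The median was 0.04, with 11 members above 0 and 4 below, without Dp3Tyb replicate 5, 0.96 without wt_d replicate 5, 0.14 without wt_t replicate 4 (13 above and 2 below) and 1.01 without Ts1Rhr replicates 1 and 2, where again 0 members had an unadjusted p under 0.05 (1.98% of genes). It was 0.27 and 0.28 without wt_d replicates 1 and 3, 0.25 and 0.29 without Ts1Rhr replicates 3 and 5, 0.69 without wt_t replicate 5 and 0.70 without Ts1Rhr replicate 2. Leaving out any other single library gave 0.31 to 0.64. With near copies summed into the gene they match, the medians were 0.03 in Dp3Tyb, -0.32 in Ts1Rhr and 0.40 for the difference, and again 0 members were called. mt-Co2 then had a log2 fold change of 0.09 in Dp3Tyb in place of -0.18. The chromosome 1 pseudogenes did not pass either, with Gm28661 at 0.16 (SE 0.43) in Dp3Tyb and -0.22 (SE 0.30) in Ts1Rhr, Atp6-ps at -0.0069 (SE 0.54) and -0.42 (SE 0.38), and Gm28437 at 0.04 (SE 0.25) and -0.18 (SE 0.16) on the log2 scale.

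**Figure D4:**
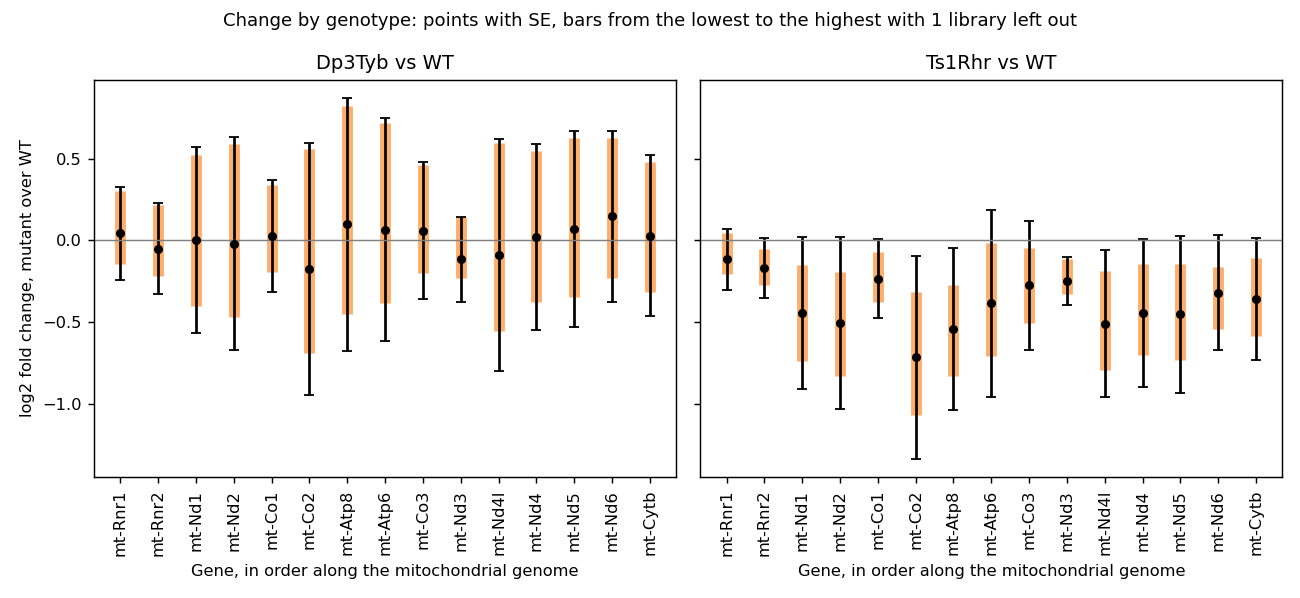
Fitted log2 fold change of each member in order along the mitochondrial genome (points, with SE as whiskers) for Dp3Tyb against wt_d (left) and Ts1Rhr against wt_t (right). Broad bars run from the lowest to the highest value when 1 library at a time is left out, and for mt-Atp8 in Dp3Tyb they run from -0.45 to 0.82.

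The nuclear genes that replicate, transcribe, process and translate the mitochondrial genome were looked at as a list of 121, all of which were tested. In limma 0 were called in either strain, and so with edgeR and DESeq2. At an unadjusted p under 0.05 there was 1 in Dp3Tyb (0.826% of the list, against 2.8% of all genes) and 3 in Ts1Rhr (2.48% against 5.52%). Without Ts1Rhr replicates 1 and 2 there were 16 in Ts1Rhr (13.2% against 16.5%), 8 in each direction, and 0 were called. Over the list, 42 fitted values were above 0 and 79 below in Dp3Tyb (median log2 fold change -0.03), and 63 above and 58 below in Ts1Rhr (median 0.0066). Over all genes tested 7221 were above and 7542 below in Dp3Tyb and 7374 and 7493 in Ts1Rhr. The count of values above and below 0 in Dp3Tyb depended on scaling and on 1 library. Scaled by all reads the list had 64 above and 57 below in Dp3Tyb (median 0.0042) and 82 above and 39 below in Ts1Rhr (median 0.06), where the medians of all genes moved to 0.03 and 0.06. With either scaling the list median in Dp3Tyb was below that of all genes. Without Dp3Tyb replicate 5 there were 58 above and 63 below. By role, the median log2 fold changes in Dp3Tyb and in Ts1Rhr were 0.02 and -0.08 for the 10 transcription genes, -0.07 and -0.13 for the 8 nuclear regulators and -0.03 and -0.03 for the 14 genes of replication and maintenance. They were -0.02 and 0.01 for the 8 genes of cleavage and processing, -0.05 and -0.05 for the 15 of poly(A) tails, stability and decay and -0.02 and 0.04 for the 26 of RNA modification. For translation they were -0.03 and 0.06 for the 23 transfer RNA synthetase genes and -0.06 and 0.01 for the 17 translation factors.

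Most of these genes varied less between libraries than the members they serve. Among the 111 with a mean of at least 100, the highest library was a median of 1.62 times the lowest, and 11 varied more than the 2.67-fold of mt-Rnr2. The widest was Mtres1 at 3.80-fold, named here after its value was seen, which was exceeded by 11 of the 15 members. Tfam had 809 ± 62.2 normalised read counts in wt_d, 766 ± 19.5 in Dp3Tyb, 787 ± 39.7 in wt_t and 744 ± 45.9 in Ts1Rhr (SD, n = 5 each). Polrmt, the mitochondrial RNA polymerase, had 319 ± 64.5, 331 ± 39.6, 301.3 ± 38.9 and 328 ± 59.5 in the same order. The differences of Polrmt were within the SD of each group. Those of Tfam were larger than the SD of Dp3Tyb and than that of wt_t, and smaller than those of wt_d and Ts1Rhr.

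Lrpprc and Slirp, partners that bind and stabilise mitochondrial messenger RNAs, had log2 fold changes of -0.09 (SE 0.07) and 0.10 (SE 0.13) in Dp3Tyb and of 0.03 (SE 0.07) and -0.12 (SE 0.09) in Ts1Rhr. Polg, the catalytic subunit of the mitochondrial DNA polymerase, had -0.02 (SE 0.16) and 0.14 (SE 0.16), and Twnk, the replicative helicase, -0.06 (SE 0.08) and -0.10 (SE 0.07). The smallest unadjusted p-values in Dp3Tyb were those of Polg2, the accessory subunit of that polymerase (-0.40, SE 0.17), of the termination factor gene Mterf1b (0.58, SE 0.29) and of the release factor gene Mtrf1l (-0.22, SE 0.13). In Ts1Rhr they were those of Wars2, the mitochondrial tryptophan transfer RNA synthetase (0.21, SE 0.09), Rnaseh1, which removes RNA from RNA-DNA hybrids (-0.23, SE 0.10), and Mterf1a (-0.44, SE 0.20). All 6 had limma adjusted p-values of 0.99996 in Dp3Tyb or 0.795 in Ts1Rhr.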

How the data were processed

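Whole hearts were dissected at E13.5 and frozen, RNA was extracted on columns, and libraries were made with a poly(A)-based mRNA kit and sequenced on an Illumina instrument. The submitters' processing notes name Trimmomatic 0.36, STAR 2.5.2a, RSEM 1.2.31, DESeq2 and GRCm38. The annotation, the use of strand and the treatment of reads matching several places are not given in the sources used here. The deposited table holds a normalised signal per gene and library, which the authors made from gene counts divided by size factors. Every value was a whole multiple of 1 read (largest deviation 2.04e-09, tolerance 1e-06), so whole reads and depths were recovered.

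Members were the genes on the mitochondrial chromosome. The members and lists were chosen with earlier results of these data known. The list of 121 nuclear genes was written from general knowledge. All 13 coding and both ribosomal RNA genes are named, as are nuclear list genes with the 3 smallest p in each strain plus 6 of known role, and the 3 near-copy genes with the highest median. Transfer RNA genes with a median of at least 10 were to be named, and 0 reached it. Genes that reached a value of 10 in 5 or more libraries of a fit were tested with limma 3.58.1 (R 4.3.3) on log2(value + 1), so fold changes of low genes are understated, at an adjusted p of 0.05. Each strain was compared with its own littermates, and the difference between strains was fitted over all 20 libraries. Replicates may share a litter, so p-values measure only the spread between these samples. edgeR 4.0.16 and DESeq2 1.42.0 on recovered reads, other scalings, filters and pseudocounts, and leaving out libraries were alternatives.

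The fits were tested on simulated data with 200 changed genes, where limma recovered 48% of 1.5-fold and 80% of 2-fold changes among 14763 genes for Dp3Tyb, and 48% and 76% among 14867 for Ts1Rhr. These are rates for genes at large and do not apply to the members, whose spread was wider. Near copies were found by matching the mitochondrial chromosome to the GRCm39 nuclear genome with BLAST 2.17.0 (at least 80 bases and 90% identity, genes covered by at least 80%). Matches on a single nuclear chromosome (not chromosome 1) were removed from this search, so near copies there are not counted. Chromosome 1 positions are those of GRCm39 and are not comparable with GRCm38. Correlations of mt-Co1 with 8 measures had been planned over all 20 libraries and are not reported, because the libraries split by mitochondrial share.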

Additional observations from a re-analysis of the deposited data

Results flagged for a closer look

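Each member with reads, the mitochondrial share, the ribosomal RNA reads per 100 coding reads and the 3 most abundant near-copy genes were examined in each group of 5 for a library far from its group mates. A library was singled out where its gap to the nearest other value, divided by the range of the group, exceeded 0.710, which chance passes in about 1 in 20 groups. Of 80 groups of values examined, 40 held such a library. They were wt_d replicate 5 in 20, Dp3Tyb replicate 5 in 19 and wt_t replicate 4 in 1, which do not count as independent because the genes share libraries.

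In normalised read counts, the values of wt_d replicate 5 and Dp3Tyb replicate 5 were 22299 and 19003 for mt-Rnr1, 63923 and 47156 for mt-Rnr2, 498156 and 363558 for mt-Nd1, 378123 and 239427 for mt-Nd2, 776337 and 616803 for mt-Co1, 164904 and 79128 for mt-Co2 and 94454 and 62122 for mt-Atp8. They were 92954 and 55884 for mt-Atp6, 79636 and 55691 for mt-Co3, 23931 and 12434 for mt-Nd4l, 549709 and 385432 for mt-Nd4, 540599 and 386741 for mt-Nd5, 16500 and 13663 for mt-Nd6 and 473214 and 354954 for mt-Cytb. For mt-Nd3 only wt_d replicate 5 was apart, at 4439, and for mt-Rnr1 wt_t replicate 4 was apart as well, at 19000. The same 2 replicates 5 were apart in mitochondrial share (19.5 and 15.5%), in ribosomal RNA reads per 100 coding reads, where they were the lowest of their groups (2.33 and 2.52), and in the near copies Gm28661 (286053 and 260270), Atp6-ps (379192 and 269152) and Gm28437 (134610 and 118950).

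The 2 libraries had 6600839 and 12470421 reads, where the others of their groups had 12151414 to 19349084. Whether depth had a part in these values was not tested.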

How the results depend on the processing

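The call on the members did not change. In limma with every scaling, filter, pseudocount and left-out library tried, and in edgeR and DESeq2 at 1 setting each, 0 of 15 members and 0 of 121 nuclear genes of their expression were called in either strain or for the difference, and the smallest adjusted p of a member was 0.297. Among the 15 coding and ribosomal RNA members, mt-Nd3 had the fewest reads, at least 1397 in every library.

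Counts over all genes moved. For Dp3Tyb 8 became 4 without the filter, 34 with DESeq2, 3 scaled by all reads, 54 with the mitochondrial share as a term, and 13 without the 2 shallowest libraries, wt_d replicate 5 and wt_t replicate 4 (a setting added after seeing the data, as was the summing of near copies). For Ts1Rhr 4 became 25 with DESeq2 and with the share as a term, 2 scaled by all reads, 0 without Ts1Rhr replicates 1 and 2, and 1 without the 2 shallowest. For the difference 2 became 0 without the filter, scaled by all or by nuclear reads and without Ts1Rhr replicates 1 and 2, and 1 without the 2 shallowest. Leaving out 1 library gave 2 to 13 for Dp3Tyb, 1 to 6 for Ts1Rhr and 0 to 3 for the difference. The cause was not tested. Correlations of mt-Co1 are not reported, so their alternatives, another scaling and each cohort alone, are left out.

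Fitted log2 fold changes that are within their errors changed sign easily. In Dp3Tyb, DESeq2 and edgeR gave -0.0059 and -0.0005 for mt-Rnr1, -0.20 and -0.19 for mt-Nd1, -0.058 and -0.053 for mt-Co1, -0.34 and -0.33 for mt-Atp8, -0.37 and -0.36 for mt-Atp6, -0.11 and -0.11 for mt-Co3, -0.22 and -0.21 for mt-Nd4, -0.19 and -0.19 for mt-Nd5, -0.028 and -0.016 for mt-Nd6 and -0.14 and -0.13 for mt-Cytb. With the share as a term Dp3Tyb gave -0.058 for mt-Nd1, -0.0094 for mt-Co1, -0.0068 for mt-Atp6, -0.041 for mt-Nd4 and -0.025 for mt-Cytb. Ts1Rhr then gave 0.036 for mt-Rnr1, 0.0041 for mt-Rnr2, 0.0049 for mt-Nd1, 0.15 for mt-Atp6, 0.099 for mt-Co3, 0.0087 for mt-Nd5 and 0.0093 for mt-Cytb. The difference then gave -0.056 for mt-Rnr1, -0.10 for mt-Rnr2, -0.055 for mt-Nd1, -0.085 for mt-Nd2, -0.019 for mt-Co1, -0.13 for mt-Co2, -0.15 for mt-Atp6, -0.053 for mt-Co3, -0.0092 for mt-Nd3, -0.037 for mt-Nd4, -0.14 for mt-Nd4l, -0.0031 for mt-Nd5 and -0.038 for mt-Cytb. The share is itself made of the members, so that fit compares them with each other.

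Summing near copies gave 0.086 for mt-Co2, -0.0003 for mt-Atp6, 0.084 for mt-Nd3 and 0.019 for mt-Nd4l in Dp3Tyb. mt-Nd2 in Dp3Tyb became 0.011 when scaled by all reads and 0.0038 by nuclear reads. Without the 2 shallowest libraries Dp3Tyb gave 0.21 for mt-Rnr2, 0.59 for mt-Nd2, 0.56 for mt-Co2, 0.14 for mt-Nd3 and 0.59 for mt-Nd4l, and Ts1Rhr gave 0.0435 for mt-Rnr1. Leaving out 1 library at a time in Dp3Tyb gave -0.14 to 0.30 for mt-Rnr1, -0.22 to 0.21 for mt-Rnr2, -0.40 to 0.52 for mt-Nd1, -0.47 to 0.59 for mt-Nd2, -0.19 to 0.34 for mt-Co1, -0.69 to 0.56 for mt-Co2, -0.45 to 0.82 for mt-Atp8, -0.38 to 0.72 for mt-Atp6, -0.20 to 0.46 for mt-Co3, -0.23 to 0.14 for mt-Nd3, -0.56 to 0.59 for mt-Nd4l, -0.38 to 0.55 for mt-Nd4, -0.35 to 0.63 for mt-Nd5, -0.23 to 0.63 for mt-Nd6 and -0.31 to 0.48 for mt-Cytb. In Ts1Rhr it gave -0.21 to 0.0435 for mt-Rnr1. For the difference it gave -0.0005 to 1.10 for mt-Atp6, -0.0016 to 0.39 for mt-Nd3, -0.047 to 1.10 for mt-Nd4l, -0.029 to 0.42 for mt-Rnr1 and -0.051 to 0.38 for mt-Rnr2. Differences by genotype in mitochondrial share and in the ribosomal RNA ratio were followed as well. Under every alternative tried they moved by less than the pooled SD of their 2 full groups, which includes the libraries that stood apart. Both differences grew in Ts1Rhr without replicates 1 and 2, its libraries above the gap (Ts1Rhr means of 5.83% and 4.47). Both changed sign in Dp3Tyb when certain single libraries were left out. Without replicate 5 in wt_d and Dp3Tyb the shares were 5.24% ± 0.270 and 5.78% ± 0.392 (SD, n = 4 each), apart by more than either SD. Transfer RNA reads are 0 throughout, so no alternative could move them. No paired analysis was possible because the labels carry no replicate numbers that tie a mutant heart to a WT heart.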
